A study of Mus musculus with 5 samples.

Results

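Glycine and its precursors are broken down, mostly in mitochondria, by a small set of enzymes, and 9 genes that encode them were followed by RNA-seq across 5 mouse libraries. The genes were chosen by symbol, without reference to a threshold, and all 9 were found once in both deposited tables of 24421 genes. They comprise the 4 genes of the glycine cleavage system (GCS), which are Gldc, Amt, Gcsh, and Dld, the 2 genes of threonine breakdown, Tdh and Gcat, and 3 genes of dimethylglycine and sarcosine oxidation, Dmgdh, Sardh, and Pipox. They lie on 9 different chromosomes.

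The libraries were MEFs (fibroblasts from CF-1 mouse embryos, grown in serum-containing medium), iPSCs, V6.5 mouse embryonic stem cells without an shRNA (here called mESCs), V6.5 cells that stably carried a non-targeting control shRNA (NTC), and V6.5 cells that carried an shRNA against Gldc (shGldc). No genetic change other than the shRNA vectors is given for the V6.5 libraries, and the factors used to make the sequenced iPSCs are not given in the labels. Per the labels, the stem cells were grown without feeders on gelatin, in medium with serum replacement, a small amount of serum, and leukaemia inhibitory factor, so medium and cell type cannot be told apart in any comparison with MEFs. With a single library for each condition, there is no replicate check on any difference and no p-value.

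In the GCS, Gldc (the P protein) takes the carboxyl carbon off glycine as carbon dioxide and passes the remaining aminomethyl group to lipoate on Gcsh (the H protein). Amt (the T protein) then releases ammonia and hands the one-carbon unit to tetrahydrofolate, and Dld (the L protein) re-oxidises the lipoate, a task it also performs for pyruvate dehydrogenase and related complexes. Tdh oxidises threonine, and Gcat splits the product into glycine and acetyl-CoA, which makes the pair a source of glycine in mouse embryonic stem cells. Dmgdh and Sardh strip methyl groups from dimethylglycine and sarcosine in mitochondria, and Pipox is a peroxisomal oxidase that acts on sarcosine and pipecolate, so that both Sardh and Pipox yield glycine.

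The deposited values were FPKM (fragments per kilobase of transcript and 1000000 mapped fragments), in 1 table for MEFs, iPSCs, and mESCs and another, made separately, for NTC and shGldc. Levels set side by side across the tables therefore also hold any difference in how these were made. The steps between low values correspond to about 24600000 fragments in MEFs, 22200000 in iPSCs, and 24600000 in mESCs. For NTC and shGldc the steps were less clear and gave 14600000 and 28900000, each uncertain by a factor of 2, so 14600000 and 14400000 were used for intervals. The 7 pluripotency markers summed to between 3623 and 6699 FPKM in the 4 stem cell libraries and to 3.15 in MEFs, and the 8 fibroblast markers summed to 6990 in MEFs. Their sum was 52.97 in mESCs, 13.21 in iPSCs, 11.4 in NTC, and 4.57 in shGldc. Col1a1 (20.5) and Col1a2 (15.3) made up most of the mESC sum, whereas Thy1 was higher in iPSCs (8.30) and NTC (6.95) than in mESCs (5.63), and Pdgfrb was higher in NTC (2.88) than in mESCs (2.42). The 7 macrophage markers summed to 159.1 in MEFs and to between 9.35 and 20.6 in the other libraries, where Cd68 (9.04 to 19.9, against 18.7 in MEFs) made up most of the sum and C1qa, C1qb, and C1qc were at most 0.197, against 52.7, 32.3, and 39.8 in MEFs. The 5 neural markers summed to between 18.4 (MEFs) and 72.3 (mESCs), with Sox1, Pax6, and Tubb3 highest in mESCs and Map2 and Zic1 highest in MEFs. The 4 endothelial markers summed to between 10.4 (MEFs) and 37.5 (iPSCs), mostly as Pecam1 in the stem cells and Emcn in MEFs, with Cdh5 at most 0.249 in every library. None of the 6 hepatocyte markers reached an FPKM of 1 in any library. In bulk RNA, fewer cells that express a gene and less RNA per cell cannot be told apart.

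**Figure D1:**
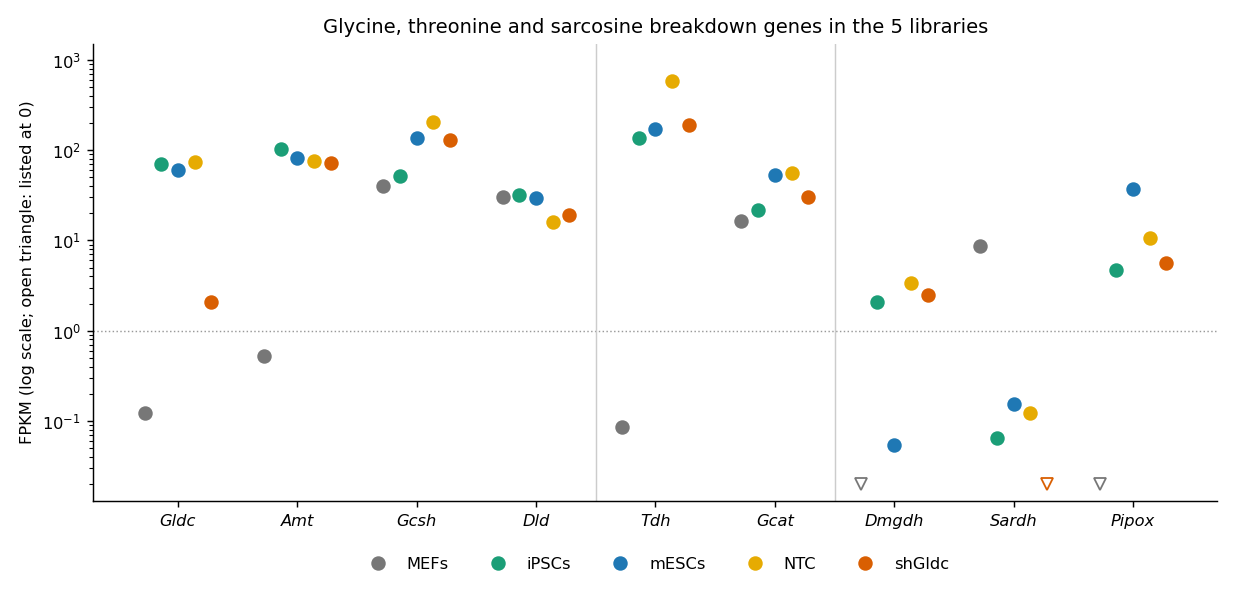
FPKM of the 9 genes in the 5 libraries on a log axis, 1 point per library, with open triangles for genes listed at 0 and a dotted line at an FPKM of 1. Gldc, Amt, and Tdh sit below 1 in MEFs and above 59 in every stem cell library except for Gldc in shGldc (2.07), whereas Sardh is above 1 in MEFs alone.

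The GCS was first examined for its level in MEFs and stem cells. Gldc stood at 0.123 FPKM in MEFs, 70.8 in iPSCs, 59.7 in mESCs, 74.7 in NTC, and 2.07 in shGldc. The 3 stem cell libraries without the Gldc shRNA lay within 1.25-fold of each other. Amt was at 0.530 in MEFs, 102.7 in iPSCs, 81.9 in mESCs, 75.7 in NTC, and 72.3 in shGldc, so that all 4 stem cell libraries lay within 1.42-fold. Both genes thus went from the lower or middle part of the MEF transcriptome, with 43.4% and 50.9% of all genes below them, to the top: in iPSCs, 95.1% of genes lay below Gldc and 96.6% below Amt.

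The other GCS genes did not share this pattern. Gcsh was already at 39.8 in MEFs and read 51.7 in iPSCs, 136.8 in mESCs, 204.7 in NTC, and 128.1 in shGldc. The 3 V6.5 libraries were high, and iPSCs lay nearer to MEFs than to any of them. Dld had 30.3 in MEFs, 32.1 in iPSCs, 29.3 in mESCs, 16.1 in NTC, and 19.3 in shGldc. The MEF level of Dld fell within the range of the stem cells, and its lowest levels were both in the second table.

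Over MEFs, the log2 ratio of Gldc was 8.31 in iPSCs and 8.07 in mESCs, on the scale of log2(FPKM + 0.1). In FPKM, the mESC level was 484 times that of MEFs, with a 95% counting interval from 282 to 1010 (exact, conditional on the summed fragments), since about 11.5 fragments stand behind the MEF value. This and all later intervals cover counting error only, not the spread between cultures. The log2 ratio of Amt was 7.35 in iPSCs and 7.02 in mESCs, that of Gcsh 0.38 and 1.78, and that of Dld 0.08 and -0.05. The comparisons with MEFs share that library, so the pairs of values are not independent.

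The make-up of the system therefore differed between libraries, as FPKM takes transcript length into account. The 4 genes summed to 70.8 FPKM in MEFs, of which Gcsh held 56.3%, Dld 42.8%, Amt 0.749%, and Gldc 0.174%. In iPSCs the sum was 257.2 and Gldc held 27.5%. In mESCs, Gldc held 19.4% of 307.7, and in NTC 20.1% of 371.2. The order of levels was Gcsh, Dld, Amt, Gldc in MEFs and Gcsh, Amt, Gldc, Dld in mESCs and NTC, while in iPSCs Amt and Gldc stood above Gcsh and Dld. The ratio of Amt to Gldc within a library was 1.45 in iPSCs, 1.37 in mESCs, and 1.01 in NTC. The ratio of Gcsh to Dld was 1.32 in MEFs, 1.61 in iPSCs, 4.67 in mESCs, and 12.7 in NTC.

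**Figure D2:**
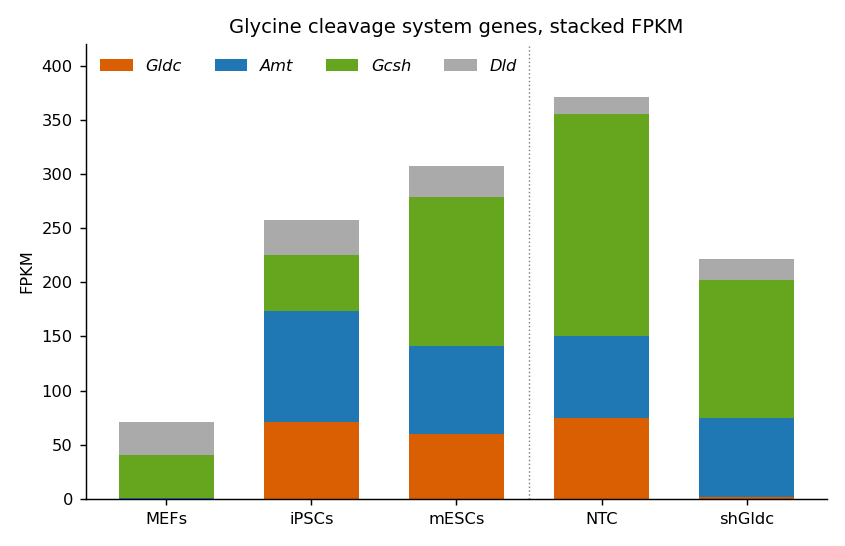
Stacked FPKM of the 4 GCS genes in each library, with a dotted line between the separately made tables. The bar of MEFs is made of Gcsh and Dld, all other bars hold a large Amt segment, and the Gldc segment is large in iPSCs, mESCs, and NTC and barely visible in shGldc (0.935% of 221.8).

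The promoter stretches of Gldc and Amt are shown because both genes were near 0 in MEFs and above more than 93% of genes in iPSCs and mESCs. Tdh met this criterion too, but no promoter sequence was available for it. The sequences are the 250 bases before the RefSeq start on GRCm38.p6, from chr19:30175442-30175691 (minus strand) and chr9:108296655-108296904 (plus strand). Capitals would mark ATGCAAAT (the octamer read by Oct4), ATTGT (the core read by Sox proteins), or CACGTG (an E-box) on either strand, and neither stretch holds one.
Gldc: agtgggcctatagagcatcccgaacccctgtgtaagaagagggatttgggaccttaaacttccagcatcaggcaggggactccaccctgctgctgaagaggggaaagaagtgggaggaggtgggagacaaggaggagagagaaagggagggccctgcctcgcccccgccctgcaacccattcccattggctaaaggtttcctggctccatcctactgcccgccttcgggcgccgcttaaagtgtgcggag
Amt: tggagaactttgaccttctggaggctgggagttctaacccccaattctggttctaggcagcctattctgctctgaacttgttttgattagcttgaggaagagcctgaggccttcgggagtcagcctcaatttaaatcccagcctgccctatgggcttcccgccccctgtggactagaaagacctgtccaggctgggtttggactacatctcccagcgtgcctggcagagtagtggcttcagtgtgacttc
Windows of 250 bases before to 50 after the RefSeq start were available for 8 of the 9 genes, all but Tdh. In these, Amt held ATTGT after its start and Gcat held CACGTG. Of all 32851 such windows, 31.0% hold ATTGT, 7.15% CACGTG, and 1.74% ATGCAAAT. The windows of Dld, Gcsh, and Gcat, which are the members above 16 FPKM in every library, had a CpG observed-to-expected ratio of 1.14, 0.774, and 0.748, against a median of 0.384 over all windows. Those of Gldc, Amt, Sardh, and Pipox had 0.389, 0.313, 0.159, and 0.139, and Dmgdh, which was listed at 0 in MEFs, had 0.753. These matches and base counts describe the windows and are no evidence of binding or of its absence. The study reported Sox2 at the Gldc promoter by ChIP. It also reported a reporter response to Sox2 that was lost when the promoter fragment was mutated. Where those sites lie relative to the stretch shown was not examined.

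The threonine pair was led by Tdh, the highest of the 9 genes in each of the 4 stem cell libraries. Tdh read 0.0856 in MEFs, 138.0 in iPSCs, 172.0 in mESCs, 583.3 in NTC, and 188.1 in shGldc. The NTC library stood apart from the other stem cell libraries, which lay between 138.0 and 188.1. Gcat, its partner, was at 16.3 in MEFs, 21.8 in iPSCs, 53.6 in mESCs, 55.4 in NTC, and 30.4 in shGldc. Gcat was high in mESCs and NTC, and the iPSC and shGldc libraries lay between these and MEFs.

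The log2 ratio of Tdh over MEFs was 9.86 in mESCs, the 8th highest of 12840 genes, and 9.54 in iPSCs, the 17th highest of 13032. About 3.97 fragments stand behind its MEF value, close to the floor of 3 fragments (0.0647 FPKM), so that the 95% counting interval of its 2009-fold difference in mESCs ran from 778 to 7320. For Gcat, the log2 ratio was 1.71 in mESCs and 0.41 in iPSCs. In MEFs the level of Gcat was 191 times that of Tdh, and in the stem cells the order was turned, with Tdh at 6.34 times Gcat in iPSCs, 3.21 times in mESCs, 10.5 times in NTC, and 6.18 times in shGldc. Tdh shares 10.2% of its 50-nt stretches with Gm13929 and exonic sequence with the antisense gene Gm17232, and Gcat shares 10.8% with Galr3, so part of their signal is uncertain.

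The genes whose profile over the 5 libraries was closest to that of Tdh were Zfp42, Rbmxl2, Esrrb, Lin28a, and Nanog, of which 3 are in the list of pluripotency markers used here. They did not share its rise in NTC over mESCs, which was 3.39-fold for Tdh. That ratio was 0.948 for Nanog, 1.01 for Zfp42, 1.40 for Esrrb, and 1.56 for Lin28a, and Rbmxl2 read 205.1 against 162.9. Closeness was the root mean square difference of log2 profiles centred on their own mean, and it ran from 0.64 to 0.68 among 13656 genes. The same measure named H2-Ab1, Crtac1, Krt17, Padi3, and Myh14 for Gldc, at 0.92 to 1.15. With a pseudocount of 1, 4 of the 5 genes remained for Tdh and 0 of 5 for Gldc, so the list for Gldc depends on how low values are treated.

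Sarcosine can be oxidised by Sardh or by Pipox, and these were found in different cells. Sardh read 8.61 in MEFs, 0.0641 in iPSCs, 0.154 in mESCs, 0.124 in NTC, and was listed at 0 in shGldc. Pipox was listed at 0 in MEFs and read 4.70 in iPSCs, 36.8 in mESCs, 10.5 in NTC, and 5.66 in shGldc. MEFs lay outside the range of the stem cell libraries for both genes, as for every member except Dld. The share of all genes for which this holds was not computed. Of the summed FPKM of the pair, Pipox made up between 98.7% and 99.6% in iPSCs, mESCs, and NTC. The levels of Pipox in the stem cells spanned 7.83-fold, from iPSCs to mESCs.

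The log2 ratio of Sardh over MEFs was -5.10 in mESCs and -5.73 in iPSCs. Its mESC level was 1.79% of that in MEFs (95% counting interval 1.03% to 2.85%), and the 8 fibroblast markers stood in the same library at 0.559% to 4.25% of their MEF levels. The 3 collagen genes stood at 0.559% to 0.689%, below the share of Sardh, and Dcn had the highest. Subtracting the MEF profile at the share of Dcn takes the mESC value of Sardh from 0.154 to 0, which follows from 1.79% being below 4.25%, whereas the shares of the collagen genes would leave most of it, so the part of fibroblast RNA in this value cannot be told apart. The part of the macrophage genes of the MEF library in its level was not tested. Sardh shares exonic sequence with the annotated gene Sardhos, and without a stated strand setting their reads cannot be told apart. Since Pipox is listed at 0 in MEFs, no fold is given for it, and 3 fragments in that library would correspond to 0.0609 FPKM.

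The stretch of 250 bases before the RefSeq start of Pipox is shown because its window was the only one of the 8 available to hold the octamer. It is from chr11:77893873-77894122 (minus strand, GRCm38.p6), with capitals on ATGCAAAT and ATTGT of either strand.
Pipox: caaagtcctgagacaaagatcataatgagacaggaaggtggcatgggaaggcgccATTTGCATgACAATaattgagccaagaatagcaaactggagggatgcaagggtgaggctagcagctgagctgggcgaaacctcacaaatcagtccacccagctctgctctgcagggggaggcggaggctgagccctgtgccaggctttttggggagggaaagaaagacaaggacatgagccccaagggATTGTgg
Read on the opposite strand, the leftmost capitals give ATTGT, 1 further base, and then ATGCAAAT, the arrangement known as the composite element of Oct4 and Sox2, with the octamer at chr11:77894060-77894067. Of the 32851 windows, 6 (0.0183%) hold this arrangement, and they belong to 5 genes, which are Exoc1, Gm34201, Gm38966, Nrarp, and Pipox. The arrangement was looked for after the sequence had been read, and the octamer ends 188 bases before the RefSeq start but 29 bases inside the longer gene model of GENCODE.

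Dmgdh separated the stem cell libraries from each other. It was listed at 0 in MEFs and read 2.102 in iPSCs, 0.0538 in mESCs, 3.41 in NTC, and 2.502 in shGldc. The untreated mESC library thus lay with MEFs, while both shRNA-carrying derivatives of the same line lay with iPSCs. About 3.96 fragments stand behind the mESC value, against 140 in iPSCs, and the iPSC level was 39.1 times that of mESCs with a 95% counting interval from 14.8 to 144. The log2 ratio of 3.84 was the 36th highest of 12323 genes, and that of NTC over mESCs, 4.51, was the 20th highest of 12048 but crosses the tables.

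The neighbour of Dmgdh on chromosome 13 is Bhmt2, which starts in the opposite direction, and Bhmt lies beyond it. Bhmt makes dimethylglycine, the substrate of Dmgdh, by passing a methyl group from betaine to homocysteine, and Bhmt2 is a related homocysteine methyltransferase. Bhmt2 was listed at 0 in MEFs and read 1.23 in iPSCs, 0.107 in mESCs, 1.71 in NTC, and 0.997 in shGldc, the same order of libraries as Dmgdh except that iPSCs stood above shGldc. Bhmt was listed at 0 in MEFs and read 2.01 in iPSCs, 0.197 in mESCs, 1.29 in NTC, and 13.1 in shGldc. All 3 genes were therefore low in untreated mESCs, and Bhmt alone was highest in shGldc. The measure of profile likeness, applied to Dmgdh after its values were seen, named Xlr3a, Xlr4b, Bhmt2, Xlr4a, and Xlr5c, at 0.46 to 0.63. With a pseudocount of 1, none of these 5 genes remained, Bhmt2 included, so the list depends on how low values are treated. The gap of 130 bases between the gene models of Bhmt2 and Dmgdh, chr13:93674303-93674432, is shown as the sequence both starts share (plus strand, GRCm38.p6, none of the motifs above).
Dmgdh to Bhmt2 gap: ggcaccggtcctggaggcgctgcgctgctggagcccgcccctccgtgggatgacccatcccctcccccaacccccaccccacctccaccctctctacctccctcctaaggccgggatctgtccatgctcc
Dmgdh shares exonic sequence with AW495222, and 26.1% of the 50-nt stretches of Bhmt occur in other genes.

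Counted together, 8 of the 9 members passed the filter of an FPKM of at least 1 in a library of the comparison for mESCs over MEFs, and Dmgdh did not. Of these, 6 were at least 2-fold higher in mESCs (30.3% of all 12840 genes were) and 1, Sardh, was at least 2-fold lower (23.3% of all genes). In iPSCs over MEFs, 9 passed, of which 5 were higher (31.5% of 13032 genes) and 1, again Sardh, was lower (21.3%). Gcsh and Gcat passed 2-fold in mESCs and not in iPSCs, Dmgdh passed in iPSCs and was below the filter in mESCs, and the median log2 ratio was 4.40 in mESCs and 4.46 in iPSCs, against 0.25 and 0.31 for all genes. The median in iPSCs is the ratio of Dmgdh, which is listed at 0 in MEFs, so it moves with the pseudocount, to 1.63 with 1 and to 7.57 with 0.01.

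Between the stem cell lines, 4 of the 8 members that passed differed at least 2-fold. Dmgdh was higher in iPSCs, where 10.1% of 12323 genes were, and Gcsh, Gcat, and Pipox were lower, where 7.44% of genes were. The iPSC level was 37.8% of the mESC level for Gcsh, 40.6% for Gcat, and 12.8% for Pipox (95% counting interval 11% to 14.8%). Gldc, Amt, Dld, and Tdh lay within 1.25-fold of each other in the 2 lines, with log2 ratios of 0.24, 0.33, 0.13, and -0.32. Within the GCS and the threonine pair, the members past 2-fold were therefore the H protein and the second enzyme of the threonine route. With 1 library each, cell line and library cannot be told apart.

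**Figure D3:**
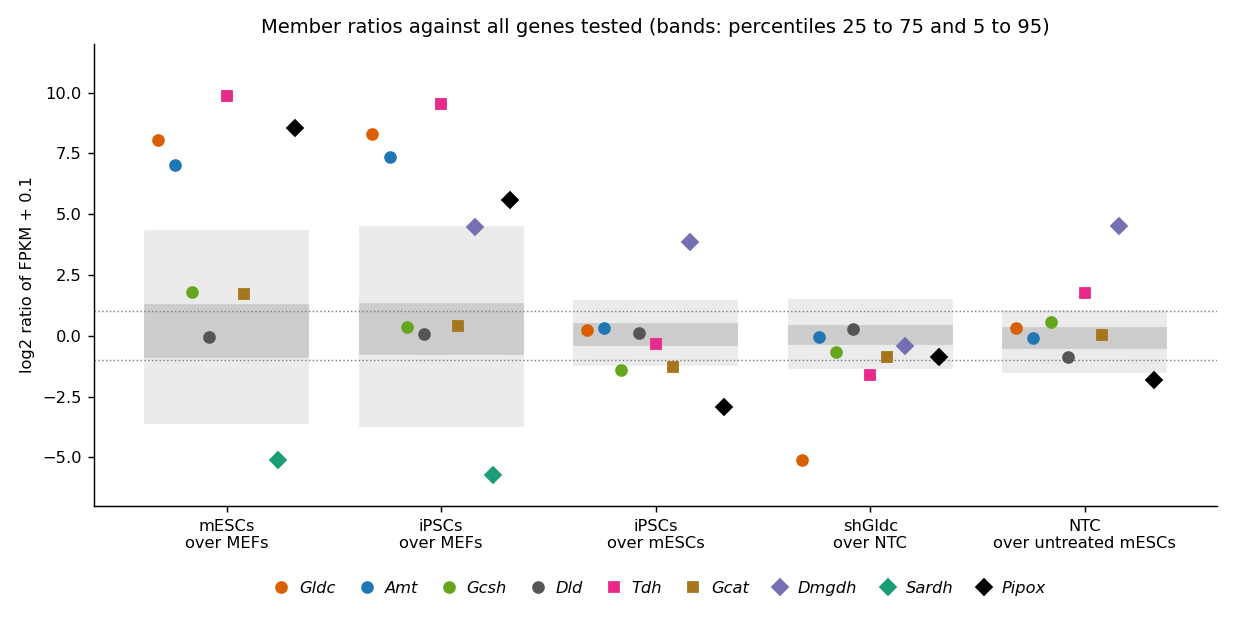
Log2 ratios of FPKM + 0.1 of the members that passed the filter in each comparison, over bands from percentile 25 to 75 and from 5 to 95 of all genes tested and dotted lines at 2-fold. Gldc, Amt, Tdh, Pipox, and Sardh lie outside the wider bands over MEFs, and Gldc lies far below the band in shGldc over NTC.

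The knockdown was checked on its target first. Gldc was left at 2.77% of its NTC level in shGldc (95% counting interval 2.28% to 3.35%), with 113 estimated fragments, and at 3.47% of the untreated mESC level. Its log2 ratio over NTC, -5.11, was the 7th lowest of 11969 genes. The remaining 2.07 FPKM was still 16.8 times the level in MEFs, a ratio across the tables. The hairpins listed by the study as sh1 and sh2 are shown as its designs against Gldc, but the library is named sh3 in the table, so which hairpin it carries and where that one binds are not known.
Gldc sh1: ccacagaaatcgccattctaa
Gldc sh2: gccacagaaatcgccattcta
Both 21-nt targets matched coding exon 21 of Gldc-201 on the minus strand, at chr19:30110736-30110756 and chr19:30110737-30110757, and they share 20 nt.

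The other GCS genes were then compared between shGldc and NTC. Amt stayed at 95.5% of NTC (95% counting interval 90% to 101%), and Dld was at 120% (107% to 134%) but at 65.8% of untreated mESCs (60.2% to 71.8%). Gcsh was at 62.6% of NTC, with 128.1 against 204.7 FPKM, but at 93.7% of untreated mESCs. None of these 3 genes differed 2-fold from either control, and with Gldc low, the ratio of Amt to Gldc was 34.9.

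Among the remaining members that passed the filter, Tdh was the only one to differ 2-fold from NTC. Its level in shGldc was 32.2% of NTC, a log2 ratio of -1.63, and 109% of untreated mESCs, a log2 ratio of 0.13. The NTC library was itself 3.39 times above untreated mESCs for Tdh (95% counting interval 3.30 to 3.48), so the fall depends on which control is used. Gcat was at 55.0% of NTC and at 56.8% of untreated mESCs, below both controls by less than 2-fold. Pipox was at 53.8% of NTC and at 15.4% of untreated mESCs, with NTC at 28.6% of untreated mESCs. Dmgdh was at 73.3% of NTC and above untreated mESCs (2.502 against 0.0538).

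In all, 2 of the 8 members that passed, Gldc and Tdh, were at least 2-fold lower in shGldc than in NTC, where 7.68% of 11969 genes were, and 0 were higher, where 8.97% were. No p-value can be given for this count of 0. The median log2 ratio was -0.77, against 0.04 for all genes. With untreated mESCs as the control, the 2 lower members were Gldc and Pipox (13.9% of 12237 genes were lower), and Dmgdh was higher (9.89%). The median log2 ratio was then -0.39, against -0.02 for all genes. The NTC comparison with untreated mESCs, which shares its libraries with both, gave 2 members higher (Tdh and Dmgdh, 4.99% of 12048 genes) and 1 lower (Pipox, 10.3%). Its log2 ratios had a robust SD of 0.59 over all genes, and those of Tdh (1.76), Dmgdh (4.51), and Pipox (-1.80) lay outside percentiles 5 to 95. Whether the vector, passage, or the separate making of the tables moved these values cannot be told apart.

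**Figure D4:**
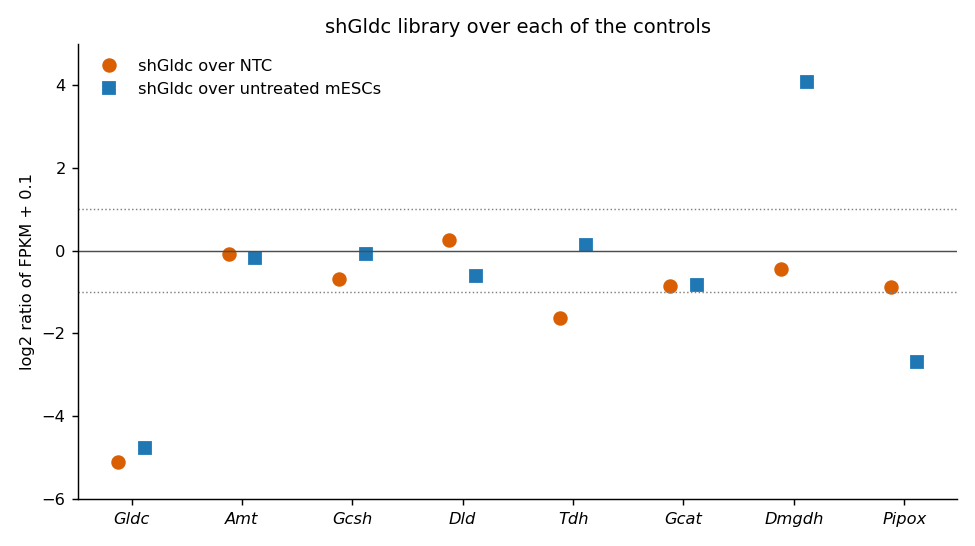
Log2 ratios of FPKM + 0.1 of the shGldc library over NTC (circles) and over untreated mESCs (squares, across the tables), with dotted lines at 2-fold and Sardh left out as below the filter. Gldc is low against both controls, while Tdh is low against NTC only (-1.63 and 0.13) and Dmgdh and Pipox shift with the control.

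The genes that surround these enzymes were described by lists, whose counts are to be read against all genes: over MEFs, 30.3% were at least 2-fold higher and 23.3% lower in mESCs, and 31.5% higher and 21.3% lower in iPSCs. In shGldc over NTC, 8.97% of all genes were higher and 7.68% lower, so a count of 0 in a short list says little. Of 14 genes for the synthesis of lipoate, the cofactor of Gcsh, and for its iron-sulphur supply, 2 were at least 2-fold higher in mESCs than in MEFs, none was lower, and the median log2 ratio was 0.47 (0.25 for all genes). Of the 2, Lipt2 (1.20) falls below 2-fold when ratios are centred on the median of all genes. The highest was Mcat (1.39), a mitochondrial fatty acid synthesis enzyme, and the lowest Isca1 (-0.50). In iPSCs, none of the 14 was higher and Glrx5 alone was lower (-1.34), Isca2 was highest (0.94), and in shGldc over NTC none of the 14 differed 2-fold. Lias, which makes lipoate, read 12.7 in MEFs, 21.7 in iPSCs, 24.6 in mESCs, 18.1 in NTC, and 19.3 in shGldc.

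Of 10 genes for the other complexes that use Dld, 4 were at least 2-fold higher in mESCs and 4 in iPSCs, none was lower, and none differed 2-fold in shGldc over NTC. Dhtkd1, a subunit of the 2-oxoadipate complex, had the highest ratio over MEFs in both (2.16 in mESCs and 2.31 in iPSCs), and Pdha1, of pyruvate dehydrogenase, the lowest (-0.59 and -0.72). The 4 of 10 lies near the share of all genes that were higher over MEFs.

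Of 6 genes for other routes of threonine and serine breakdown, 4 passed over MEFs. Thnsl1 was highest in both (1.52 in mESCs and 1.71 in iPSCs), while Srr (serine racemase) was lowest in mESCs (-2.65) and Sdsl in iPSCs (-1.71). Srr was also called at least 2-fold higher in shGldc over NTC (log2 ratio 2.07, from 0.755 to 3.49 FPKM), while Thnsl2 (1.20 to 2.47 FPKM) fell just short on the scale with the pseudocount (0.99). Srr shares exonic sequence with Smg6 and Tsr1. Another list joined choline oxidation, the Bhmt genes, the electron carriers of Dmgdh and Sardh, and Gnmt, which makes sarcosine by methylating glycine. Its highest ratio over MEFs was that of Gnmt in both stem cell types, and its lowest was that of Etfdh in mESCs (-0.66) and of Aldh7a1 in iPSCs (0.04). Gnmt was listed at 0 in MEFs and read 3.89 in iPSCs, 10.4 in mESCs, 6.09 in NTC, and 3.02 in shGldc. The libraries with Pipox were thus also those with Gnmt, and mESCs were highest for both. Chdh, which starts the route from choline, stayed at or below 0.339 in every library.

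Of the pair that interconverts serine and glycine, cytosolic Shmt1 read 9.41 in MEFs, 66.1 in iPSCs, 86.3 in mESCs, 145.1 in NTC, and 84.2 in shGldc. Mitochondrial Shmt2 was high in every library, from 86.7 in shGldc to 157.4 in iPSCs, with 129.6 in MEFs. Of 9 genes for other uses of glycine, 4 passed over MEFs and 1, Gatm (creatine synthesis), was at least 2-fold lower in mESCs (-2.41) and in iPSCs (-1.46), while Alas1 (haem synthesis) had the highest ratio in both (0.57 and 0.58). Of 9 transporters of glycine and threonine, 7 passed, of which 4 were lower in mESCs and 2 in iPSCs and none was higher, with the 2 in iPSCs near the share of all genes. The glycine transporter Slc6a9 was lowest in mESCs (-2.85, from 14.6 to 1.95 FPKM), and Slc36a4 in iPSCs (-1.66), while the highest ratios were those of Slc25a38 in mESCs (0.05) and Slc1a5 in iPSCs (0.96).

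For methylglyoxal, which can form from the product of Tdh, 3 of 4 genes passed. The glyoxalase gene Hagh was highest in both stem cell types (1.65 in mESCs and 1.87 in iPSCs), and Glo1 was lowest (-0.58 and -0.82), with none of the 3 at least 2-fold different in shGldc over NTC. Of the genes that the study examined as regulators of Gldc, Sox2 read 0.643 in MEFs, 250.8 in iPSCs, 196.7 in mESCs, 223.0 in NTC, and 130.4 in shGldc. Lin28a was listed at 0 in MEFs and read 27.9 in iPSCs, 47.6 in mESCs, 74.3 in NTC, and 55.2 in shGldc. Klf4 was already at 22.2 in MEFs and read 104.7, 42.2, 54.5, and 36.6 in the same order of stem cell libraries. None of these 3 differed 2-fold between shGldc and NTC, where Lin28a had the highest ratio (-0.43) and Sox2 the lowest (-0.77).

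In shGldc over NTC, the lists ran within narrower limits. The lipoate list ran from -0.73 (Mcat) to 0.80 (Iba57), and the list of complexes that use Dld from -0.40 (Bckdhb) to 0.57 (Pdhx). The list of other routes ran from -0.60 (Tha1) to 2.07 (Srr), and the list with Gnmt from -0.99 (Gnmt) to 3.24 (Bhmt). On this scale, Srr and Bhmt were the only list genes other than members that passed the filter and lay past 2-fold. In FPKM without the pseudocount, Gnmt was 2.019-fold lower (3.02 against 6.09) and Thnsl2 was 2.062-fold higher. Shmt1 stood at -0.78 and Shmt2 at -0.32, and the other uses of glycine ran from -0.12 (Alas1) to 0.77 (Gatm). The transporters ran from -0.47 (Slc38a2) to 0.64 (Slc6a9), and the methylglyoxal genes from -0.16 (Hagh) to 0.00 (Park7). Besides Srr and Bhmt, the list genes named here that share exonic sequence with another annotated gene are Lias, Mcat, Isca1, Pdha1, Dhtkd1, Tha1, Chdh, Etfdh, Aldh7a1, Shmt1, Shmt2, Alas1, Slc6a9, Glo1, and Lin28a, and for Slc6a9 26.3% of 50-nt stretches occur in other genes.

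**Figure D5:**
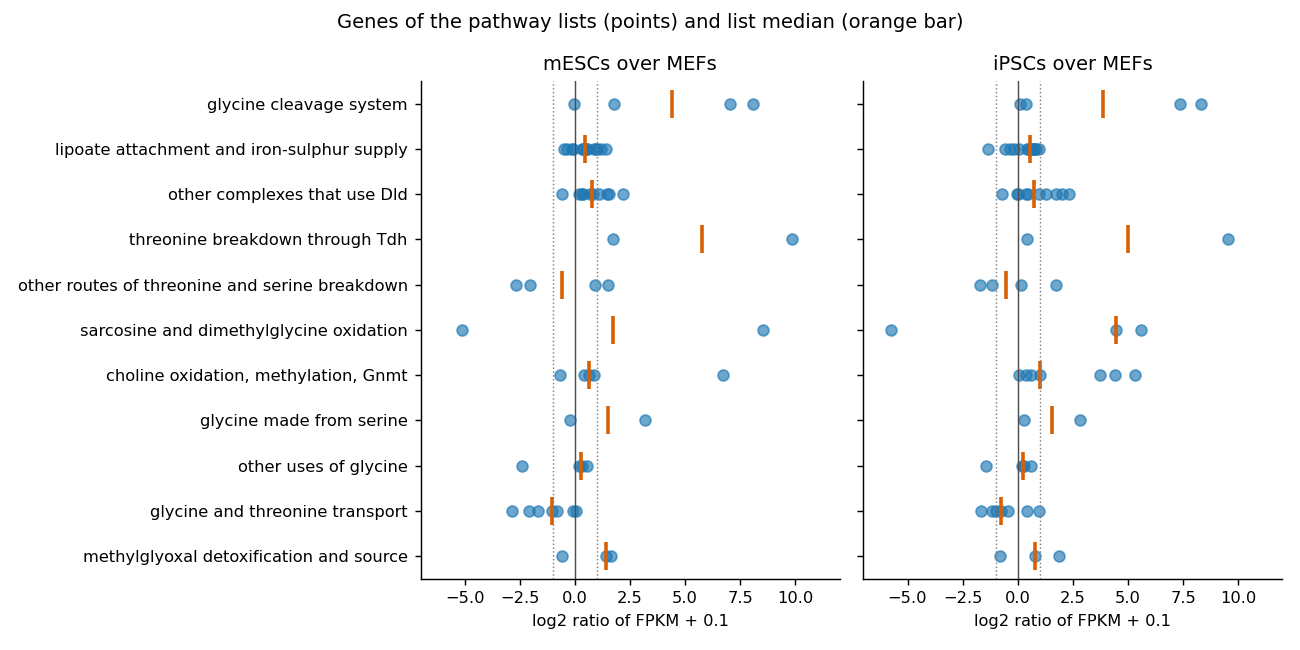
Log2 ratios of FPKM + 0.1 over MEFs of the genes that passed in each list (points), the regulators of Gldc not drawn, with the list median as an orange bar and dotted lines at 2-fold. Among the lists drawn, the points far to the right are mostly members (Gldc, Amt, Tdh, Pipox) and Gnmt, which makes sarcosine from glycine, and the transporters lie mostly to the left of 0.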

How the data were processed

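RNA from 5 mouse cell cultures was sequenced as 1 library each. Per the labels and methods, libraries were made with an NEBNext Ultra kit, and the authors mapped reads with TopHat2 (2.1.0), assembled transcripts with StringTie (1.3.4d), and computed expression with Ballgown. The processing notes also name SAMtools (1.7) and both mm9 and mm10, while the methods name mm10. The annotation, strand setting, and filters are not given in the sources used here. FPKM values were deposited by the authors as 2 separately made tables.

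Log2 ratios were taken as differences of log2(FPKM + 0.1), which understates the change of low genes, over genes that reached an FPKM of 1 in either library compared, and a difference of 2-fold was called. The members, gene lists, and markers were chosen with earlier results of these data known. All members were named with every library's value, from each list the genes with the highest and lowest ratio (printed over MEFs and for shGldc over NTC, not for the other comparisons), and the 5 genes most like Gldc and Tdh. Depth was estimated from steps in low values of 5723 single-transcript genes (975 to 1091 low values in the first table, 549 and 528 in the second). Intervals are exact Clopper-Pearson at 95% on estimated fragments. Positions and shared 50-nt stretches are from GENCODE M21 (GRCm38, which is mm10), and promoters from RefSeq GRCm38.p6. Ratio and depth steps were tested on simulated data. Alternatives were the pseudocount, filter, scaling, centring, threshold, and control. Python 3.11.15, pandas 2.3.3, and scipy 1.17.1 were used.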

Additional observations from a re-analysis of the deposited data

How the results depend on the processing

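With 1 library per condition, no library could be left out of a group. No paired analysis was possible because each group is 1 library and the labels give no replicate numbers. The counts of members at least 2-fold apart (7 in mESCs over MEFs, 6 in iPSCs over MEFs, 4 in iPSCs over mESCs, 2 in shGldc over NTC, and 3 in NTC over untreated mESCs) stayed within 1.5 times under both other pseudocounts, both other filters, rescaling, and centring. With 4.25% of the MEF profile (the highest share of a fibroblast marker) subtracted from the mESC library, an alternative chosen after seeing the data, the counts were 7 in mESCs over MEFs and 4 in iPSCs over mESCs. At a threshold of 4-fold the count fell to 2 in iPSCs over mESCs, to 1 in shGldc over NTC, and to 1 in NTC over untreated mESCs, and at 1.5-fold it was 5 in shGldc over NTC, as the alternative's own construction gives. The share of Gldc in the GCS sum of MEFs was 0.305% without Dld in place of 0.174%. The median log2 ratio of the members was 3.5 in mESCs over MEFs with a pseudocount of 1, and in iPSCs over MEFs it was 1.63 with a pseudocount of 1, 7.57 with 0.01, and 3.38 as a mean. Of 164 single-member ratios under the other pseudocounts, rescaling, and centring, 140 moved by less than 0.59 (the robust SD of NTC over untreated mESCs). The 24 others moved under a pseudocount of 1 (13) or 0.01 (11). None that was 2-fold apart changed direction, but a pseudocount added to both values cannot reverse a ratio. Rescaling and centring shift the ratios of a comparison by nearly the same small amount. The 41 ratios under each of these are therefore no independent check. Among the counts in the pathway lists, 222 stayed the same under the alternatives and 18 moved. The estimated depth limits values near 0, where 3 fragments correspond to 0.0269 to 0.144 FPKM, depending on gene and library.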
